A study of Mus musculus and Homo sapiens with 40 samples.

Results

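Constitutive distal H3K27ac regions without CEBPA are stretches of the mouse genome that carried acetylated lysine 27 of histone H3 (H3K27ac) in all 4 conditions measured. They lay away from the starts of protein-coding genes and overlapped no peak called for the transcription factor CEBPA. They were chosen from the peak lists themselves: the 4 H3K27ac lists were merged wherever peaks overlapped by at least 1 bp, and a region was kept if it held a peak of every list, had no protein-coding transcript start inside it or within 1 kb, and overlapped no peak of the 4 lists made with antibodies to CEBPA or to its ER tag. Of 183152 merged regions on the autosomes and X, 56635 held a peak in all 4 H3K27ac lists, 43267 of these were distal, and 32850 were free of CEBPA. The 32850 regions made up 17.9% of all merged regions, 58.0% of the constitutive ones and 75.9% of the constitutive distal ones. The remaining 10417 constitutive distal regions overlapped a CEBPA or ER peak and served as the main comparison. Of these, 27.3% overlapped peaks of only 1 of the 4 lists and 36.9% of all 4. Without CEBPA, or CEBPA-free, means below without such a called peak, and binding missed by the lists was not assessed.

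The cells were HPC-7, an immortalised mouse haematopoietic stem and progenitor line that, by the study's methods, has very little CEBPA of its own and was stably transduced so that every cell constitutively made either the full-length CEBPA isoform p42 or the truncated isoform p30, each fused to an ERT2 hormone-binding domain that is activated by 4-hydroxytamoxifen. The study's methods state that lines with ERT2 fusions were given 4-hydroxytamoxifen before an experiment. Untreated here therefore means without LPS. Untransduced or empty-vector cells were not analysed here. Both groups carried a CEBPA transgene, and the line and the isoform are the same variable. H3K27ac was measured in untreated p42 and p30 cells and in both after 2 h of lipopolysaccharide (LPS) at 100 ng/mL, which activates Toll-like receptor 4, with 3 libraries in each of these groups. H3K4me1 was measured in untreated p42 and p30 cells with 2 libraries each, and CEBPA with 1 anti-CEBPA and 1 anti-ER library per line, all without LPS. Binding of CEBPA after LPS was therefore not measured. Each group came as a single peak list, so no spread between replicates could be computed and no difference between conditions was tested. Depth is unknown from the lists. They held between 107114 (p42, LPS) and 142385 (p30, LPS) H3K27ac peaks. H3K27ac covered the promoters of 8 of 8 haematopoietic progenitor genes in all 4 lists, and of 12 promoters of T, B, liver, neuron and muscle genes none was covered in all 4 and 10 in none.

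H3K27ac marks active promoters and enhancers, and H3K4me1 marks enhancers, active or primed, while being low at strong promoters. Enhancers of blood progenitors are typically opened by combinations of ETS factors including PU.1, RUNX1, GATA2 and the basic helix-loop-helix factors TAL1 and LYL1, and CEBPA adds itself to many of these elements in the myeloid branch. NF-kB and AP-1 are the factors that LPS signalling activates most directly.

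The sequences that recurred in these regions are shown first, read from the mouse genome mm39 on the plus strand. Strongest and weakest here and below refer to the rank by the caller's p-value, averaged over the 4 H3K27ac lists, which is not always the order of fold enrichment. The strongest H3K27ac region nearest to each of 7 haematopoietic stem cell regulators (Tal1, Lyl1, Lmo2, Gata2, Runx1, Erg and Fli1) was searched within 500 bp of the summit. The PU.1 letters GAGGAAGT were on either strand in 5 of the 7, against 13.4% of all 32850 regions and 9.37% of all merged regions. These 7 were picked by strength, and 21.8% of the 3285 strongest CEBPA-free regions held PU.1. Of other words defined below, AP-1 and E-box were each in 4 of the 7 and GATA in 3. RUNX and the other ETS word were in 0 of the 7. Capitals mark the PU.1 letters or their reverse complement.
Tal1, chr4:114932906-114932963: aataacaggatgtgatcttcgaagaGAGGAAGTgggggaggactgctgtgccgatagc
Lmo2, chr2:103726789-103726846: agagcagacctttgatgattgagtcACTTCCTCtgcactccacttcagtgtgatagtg
Gata2, chr6:88161400-88161457: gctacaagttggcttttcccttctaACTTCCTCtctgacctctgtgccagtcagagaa
Runx1, chr16:92828709-92828766: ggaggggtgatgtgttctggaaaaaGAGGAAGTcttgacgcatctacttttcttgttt
Fli1, chr9:32473922-32473979: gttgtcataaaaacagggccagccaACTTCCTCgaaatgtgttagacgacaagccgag
The matches lay 115 bp (Lmo2), 123 bp (Fli1), 215 bp (Runx1), 320 bp (Gata2) and 335 bp (Tal1) from the H3K27ac summit. The 7 regions are too few for a comparison of shares, and the search for PU.1 stretches was chosen after the values were seen.

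The next stretches come from the regions with the largest H3K27ac excess after LPS in both lines and are shown for their NF-kB matches, in capitals. 
Itga9, chr9:118498934-118498985: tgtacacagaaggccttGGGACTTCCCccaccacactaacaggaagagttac
Hs1bp3, chr12:8436467-8436526: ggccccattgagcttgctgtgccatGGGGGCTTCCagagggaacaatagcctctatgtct
Cd44, chr2:102812027-102812086: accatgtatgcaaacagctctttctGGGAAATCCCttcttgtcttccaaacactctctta
The region near Hs1bp3 held 4 NF-kB matches within 500 bp of its summit, and 3 of the 5 regions with the largest excess held at least 1. These stretches were chosen after the values were seen.

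The last set shows the 200 bp around the summit for the strongest region of all, nearest Rdm1, for another of the 10 strongest, nearest Chd2, and, as a contrast, for the region near Tal1. Capitals mark CpG dinucleotides, which are dense at many promoters and depleted in most of the genome.
Rdm1, chr11:101532352-101532551: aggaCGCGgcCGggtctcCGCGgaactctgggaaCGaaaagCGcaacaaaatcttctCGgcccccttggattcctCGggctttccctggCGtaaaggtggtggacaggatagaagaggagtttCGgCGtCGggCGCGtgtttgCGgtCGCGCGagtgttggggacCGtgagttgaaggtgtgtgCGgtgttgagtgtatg
Chd2, chr7:73267663-73267862: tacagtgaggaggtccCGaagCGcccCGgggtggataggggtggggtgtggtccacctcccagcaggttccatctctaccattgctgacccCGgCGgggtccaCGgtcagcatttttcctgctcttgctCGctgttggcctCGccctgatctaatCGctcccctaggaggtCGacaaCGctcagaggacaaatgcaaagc
Tal1, chr4:114932500-114932699: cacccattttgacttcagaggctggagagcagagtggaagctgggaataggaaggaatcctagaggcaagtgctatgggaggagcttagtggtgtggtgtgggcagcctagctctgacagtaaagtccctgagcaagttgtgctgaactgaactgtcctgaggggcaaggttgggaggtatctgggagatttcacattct
The Rdm1 window held 21 CpG dinucleotides, the Chd2 window 11 and the Tal1 window 0, where the median over all the regions was 2 (quartiles 1 and 4). These windows were picked from a larger set and are the extremes of it. The window of the Irf2 region, ranked between Rdm1 and Chd2, held 5. Those near the other stem cell regulators held between 1 (Gata2 and Runx1) and 4 (Erg).

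The CEBPA-free regions were the weaker and narrower of the constitutive distal regions. The rule required a peak in every list but set no level, so the strength is a description of what it returned. It also required no CEBPA or ER peak anywhere in the region, which a narrow region meets more easily. Width is therefore not independent of the rule, and its part in the strength gap was not tested. Median fold enrichment at the summit was 3.91 in untreated p42 cells (quartiles 3.22 and 5.4), 3.69 with LPS (3.07 and 5.07), 3.95 in untreated p30 cells (3.24 and 5.64) and 3.90 with LPS (3.07 and 5.79). The regions with CEBPA had medians of 8.53, 7.88, 6.82 and 6.85 in the same order. The upper quartile of the CEBPA-free regions was therefore below the median of the CEBPA-bound regions in every list. The median width was 1133 bp without and 2128 bp with CEBPA. Between 76.5% and 81.4% of the CEBPA-free regions held a single peak in a given list. They were nevertheless not all weak: 623 regions (1.90%) ranked in the strongest 10% of every list, against 15.1% of the regions with CEBPA, and 2659 (8.09%) lay in the weaker 50% of every list.

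**Figure D1:**
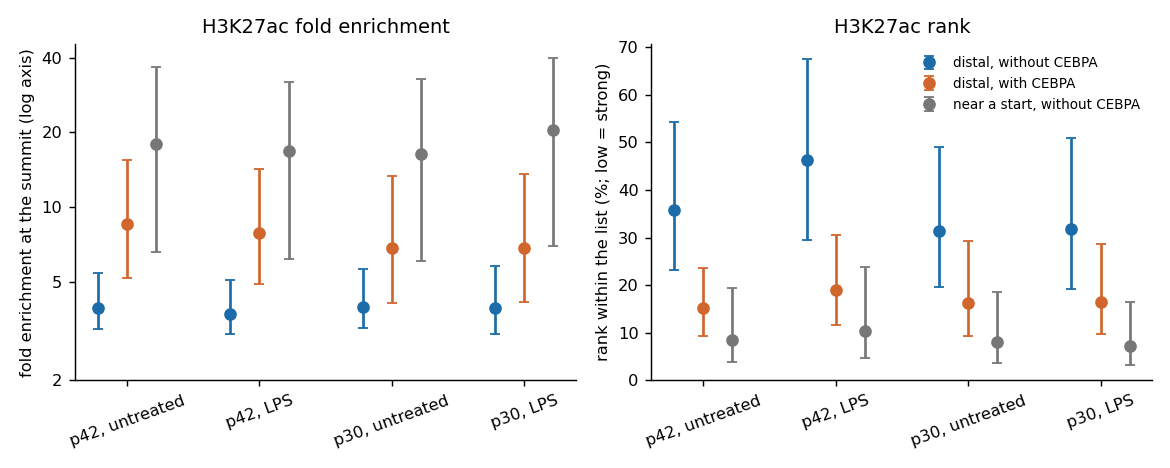
H3K27ac strength in the 4 lists for constitutive distal regions without CEBPA (blue), with CEBPA (orange) and for constitutive regions near a protein-coding start without CEBPA (grey). Points are medians and bars run from the lower to the upper quartile of fold enrichment (left, log axis) or of rank within the list in percent, where low values are strong peaks (right). Blue medians of fold enrichment sit between 3.69 and 3.95, and orange medians between 6.82 and 8.53.

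The regions were mostly intronic, as were all merged regions (62.5% in introns, 17.2% in exons, 20.3% between genes). The summit fell in an intron of a protein-coding gene in 65.8% of them, in an exon in 12.9% and between genes in 21.3%, whereas the regions with CEBPA were more often intergenic (40.5%) and less often exonic (6.81%). The median distance from the summit to the nearest protein-coding start was 15.0 kb without and 21.7 kb with CEBPA, and 66.7% of the CEBPA-free summits lay 5 to 50 kb from a start. Their nearest CEBPA or ER peak was a median of 7423 bp away (quartiles 3129 and 15804 bp). The gap was at most 100 bp in 340 regions (1.04%) and at most 1 kb in 2303 (7.01%), so the rule's requirement of no overlap left a minority that adjoined a CEBPA site. At the limit of 1 kb from a start, 122 regions lay up to 100 bp outside it and were kept, and 116 lay up to 100 bp inside it and were not; the closest lay 1002 bp and 1000 bp from a start. Exonic summits made up 7.03% of the strongest 10% of the regions by mean rank and 18.4% of the weakest 10%.

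The label distal held for protein-coding starts only. An annotated start of some other transcript lay inside or within 1 kb of 6318 regions (19.2%). Of the regions with CEBPA 24.9% had one, and 24.0% of all merged regions had any start, protein-coding ones included. Among the CEBPA-free regions, 33.2% of the strongest 10% had one, against 16.1% to 22.1% of each following step of 10%. So did 75 of the 100 strongest and 9 of the 10 strongest. The regions with CEBPA were similar. In the strongest of 10 rank classes over all constitutive distal regions, 41.2% of regions without and 38.6% with CEBPA had such a start. Regions with such a start were GC-richer (median 48.4% against 46.1%) and held the GC box GGGCGGGG, a binding site of SP factors at promoters, more often by 3.49 percentage points (95% interval 2.79 to 4.22). They also had an H3K4me1 peak at the summit less often, with differences of −6.98 points in p42 cells (−8.26 to −5.69) and −8.18 points in p30 cells (−9.51 to −6.83). Intervals here and below are Wilson intervals for shares and Newcombe intervals for differences, and cover counting error over regions only.

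The strongest region by mean rank was a 685 bp stretch between genes on chr11, 13.7 kb from the start of Rdm1. Its fold enrichment was 107 in untreated p42 cells, 127 in p42 cells with LPS, 146 in untreated p30 cells and 162 in p30 cells with LPS, and it had no H3K4me1 peak at its summit in either line. Its nearest CEBPA or ER peak was 384 bp away. Second by rank, though not by fold enrichment, came a region 34.1 kb upstream of Xcr1, a chemokine receptor gene, with 38.5, 32.0, 34.1 and 54.7 in the same order. The Irf2 region, 52.0 kb upstream of a gene for an interferon regulatory factor, had 78.6, 90, 105 and 116 and an H3K4me1 peak in p30 cells only; it was the only region of the 10 strongest without an annotated start within 1 kb. The others lay nearest to Akain1, to Dync1h1 (the dynein heavy chain), to Chd2 (a chromatin remodeller), to Potefam3b, to Ctdsp1, to H60b and to Atf3, a stress-induced partner of AP-1 proteins. The Atf3 region, 6.59 kb upstream of the start, had 76.8, 48.5, 84.0 and 49.6 and was thus lower with LPS in both lines, by less than 2-fold. Their GC content was high, with a median of 58.1% against 46.5% for all CEBPA-free regions, and 2 of the 10 in p42 and 3 in p30 cells had an H3K4me1 peak at the summit. H60b belongs to a family of related genes, and how reads were shared among such copies is not given in the sources used here.

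H3K4me1, which the rule did not use, covered the summit of 37.3% of the regions in untreated p42 cells (95% interval 36.8% to 37.8%) and 44.8% in untreated p30 cells (44.2% to 45.3%). Over all 183152 merged regions the shares were 22.3% and 28.7%. The CEBPA-free distal regions were intermediate between the other classes: regions with CEBPA had 55.9% and 62.6%, regions near a start 11.2% and 14.4%, and regions missing from at least 1 list 16.7% and 23.1%. The difference to the regions with CEBPA was −18.7 percentage points in p42 (−19.7 to −17.6) and −17.9 in p30 (−18.9 to −16.8). Weighting the regions with CEBPA to the H3K27ac rank and width of those without left −12.4 points in p42 and −5.84 points in p30. In both lines 30.5% of the CEBPA-free regions carried the mark at the summit, 6.84% did in p42 only, 14.3% in p30 only and 48.4% in neither. The H3K4me1 list of p30 cells was longer (168028 against 134650 peaks), and with equally many peaks the p30 share was 41.8%. Counting a peak anywhere in the region gave 59.1% and 64.5%.

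H3K4me1 was highest just below the top of the H3K27ac ranking and declined from there in every step of 10%. Among CEBPA-free regions it was 46.2% in p42 and 60.6% in p30 cells in the strongest 10%, 53.5% and 64.3% in the next, and 18.2% and 21.4% in the weakest 10%. The strongest 10% are also where starts of other transcripts were most frequent, and the part of these starts was not tested. When regions were classed by rank over all constitutive distal regions, the CEBPA-free share was below that of the regions with CEBPA in all 10 classes in p42 cells and in 9 of 10 in p30 cells, with class 4 as the exception (59.3% against 57.8%).

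**Figure D2:**
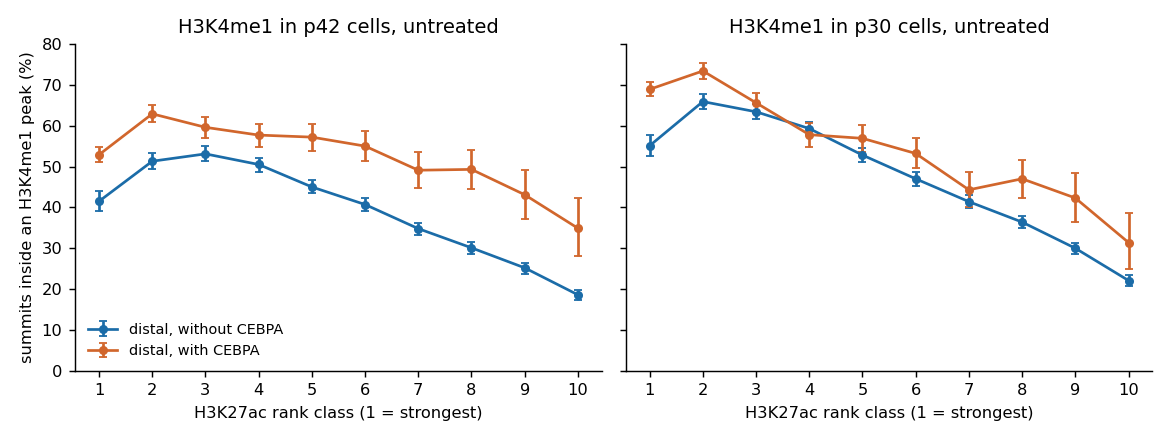
Share of constitutive distal regions whose strongest H3K27ac summit lay inside an H3K4me1 peak, in p42 (left) and p30 (right) cells, by class of H3K27ac rank from strongest (1) to weakest (10), with 95% Wilson intervals. Regions without CEBPA (blue) went from 41.5% to 18.6% in p42 cells and from 55.1% to 22.1% in p30 cells, and in p42 cells lay below the regions with CEBPA (orange) in all 10 classes.

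Sequence, which the rule also did not use, was searched in the 1000 bp around the strongest summit for 21 short patterns on both strands, 2 of them reversed words that serve as controls. PU.1 (GAGGAAGT) was in 13.4% of the regions (95% interval 13.0% to 13.8%), against 7.66% of the regions missing from at least 1 list, a difference of 5.73 percentage points (5.34 to 6.13). The other ETS word (CAGGAAGT or CCGGAAGT, which cannot match the PU.1 word) was in 15.4% against 9.81%, a difference of 5.55 points (5.13 to 5.97); 12% of all merged regions held it. AP-1 (TGAGTCA) was in 21.3% against 17.9%, a difference of 3.50 points (3.01 to 3.99), and in 18.5% of all merged regions. Its reversed word ACTGAGT was in 17.9% against 17.4%, a difference of 0.511 points (0.0497 to 0.979). RUNX (TGTGGTT) was in 25.8% against 24.7%, with 24.5% in all merged regions. The regions missing from at least 1 list had a median width of 310 bp, so most of their 1000 bp windows reached beyond them. In 200 bp the difference to them was 0.491 points for PU.1 (0.324 to 0.667) and 0.908 for ETS (0.702 to 1.12). For AP-1 it was −0.0239 (−0.255 to 0.215) and for RUNX 0.0524 (−0.21 to 0.323), both intervals spanning 0. The shares for GATA (GATAA after A or T) were 60.4% and 62.2%, and moved with those of its reversed words (AATAG before A or T), 53.2% and 56.7%.

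In 1000 bp these words were less frequent than in the regions with CEBPA, which are also wider and stronger. The difference was −3.82 points for PU.1 (−4.64 to −3.01), −3.76 for ETS (−4.61 to −2.91), −5.21 for RUNX (−6.23 to −4.21) and −3.35 for AP-1 (−4.30 to −2.42), while that of the AP-1 control was 0.352 (−0.497 to 1.18). The gap depended on the window: in 500 bp it was −0.856 for PU.1 (−1.5 to −0.232) and −0.711 for ETS (−1.4 to −0.0477), and in 200 bp all 4 words had the opposite sign, with 0.609 for ETS (0.231 to 0.963) and intervals that span 0 for PU.1, RUNX and AP-1. The GATA difference of −3.43 points (−4.49 to −2.36) was matched by its control, at −3.85 (−4.94 to −2.75). The CEBP word itself (TTGCGCAA, TTGCACAA or TTGCATAA) was in 4.61% of the CEBPA-free regions (4.39% to 4.84%), 14.4% of the regions with CEBPA, 5.48% of the regions missing from at least 1 list and 5.78% of all merged regions. The absence of a CEBPA or ER peak chose the regions, so the gap to the bound regions is a check on the selection. The difference to the regions missing from at least 1 list was −0.873 points (−1.13 to −0.61). Those regions were not filtered for CEBPA or ER peaks, so the rule enters this difference too. E-box (CAGNTG with C or A in the middle) shares were 75.4% and 74.8% without and with CEBPA, a difference of 0.633 points (−0.315 to 1.59), and 74.0% of all merged regions held the word. NF-kB matches were in 11.9% and 12.1%, and in 11.6% of all merged regions.

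Within the CEBPA-free regions the ETS-family words followed the strength of H3K27ac. PU.1 was in 21.8% of the strongest 10% and 7.85% of the weakest 10%, a difference of 13.9 points (12.2 to 15.6). The other ETS word was in 22.8% and 9.8%, a difference of 13.0 points (11.3 to 14.8). AP-1 was in 24.7% and 18.2%, a difference of 6.42 points (4.44 to 8.40). The GC box was in 11.8% and 2.98%, a difference of 8.80 points (7.56 to 10.1), and the strongest 10% is also where the starts of other transcripts were most frequent. For GATA the shares were 58.3% and 58.2%, while those of its control were 49.5% and 52.9%, a difference of −3.44 points (−5.85 to −1.02). For the E-box they were 76.2% and 76.3%. The weakest 10% were thus close to the regions missing from at least 1 list in both ETS words. The PU.1 and ETS differences were 13.9 and 13.0 points also when the weakest 10% were weighted to the GC content of the strongest 10%.

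PU.1, ETS and AP-1 matches stood beside the summit, and some other words were densest at it. PU.1 words in CEBPA-free regions occurred 13.2 times per 1000 regions in a 50 bp bin at 150 to 200 bp from the summit, 4.06 times within 50 bp of it and 3.87 times at 450 to 500 bp. The other ETS word had 13.4, 7.17 and 4.99, and AP-1 16.1, 8.83 and 9.19. The AP-1 control was flat, with 9.77, 9.04 and 9.27. GATA words were scarce at the summit (29.8) and level outside it (52.3 and 51.9), and the GATA control had the same course, with 22.2, 43.7 and 45.8. The CEBP word, which in regions with CEBPA went from 3.07 within 50 bp to 11.4 at 150 to 200 bp, had 1.42 and 2.60 in regions without. The E-box was most frequent at the summit of CEBPA-free regions, with 132 within 50 bp and 104 at 150 to 200 bp. So were NF-kB words (11.7 and 8.47), KLF words (7.92 and 4.58) and NRF1 words (1.59 and 0.946). Regions with CEBPA had 120 and 102 for the E-box, 12.1 and 8.13 for NF-kB, 7.82 and 4.12 for KLF, and 1.25 and 1.15 for NRF1. No reversed control was searched for these words, so the part of base composition was not tested.

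**Figure D3:**
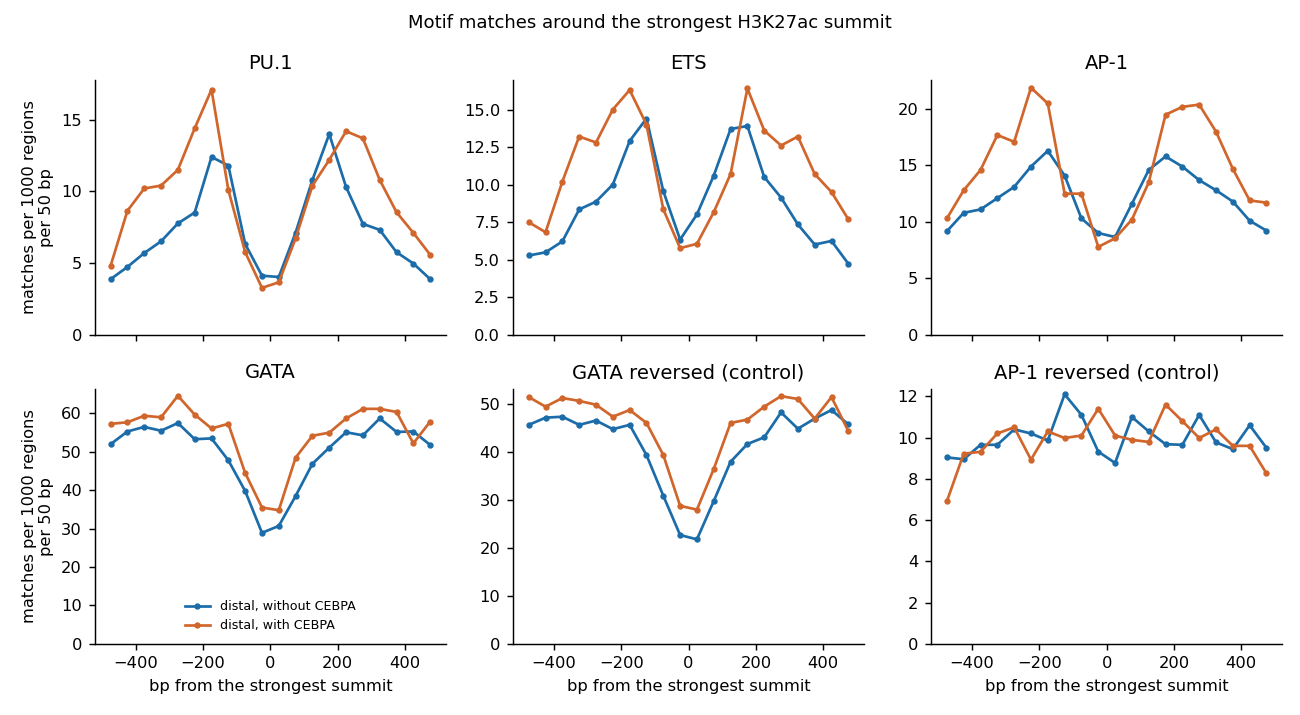
Matches to 4 sequence words and 2 reversed control words per 1000 regions in 50 bp bins around the strongest H3K27ac summit, for constitutive distal regions without (blue) and with CEBPA (orange). PU.1, ETS and AP-1 matches form shoulders on both sides of the summit, with PU.1 at 13.2 per 1000 CEBPA-free regions 150 to 200 bp away, while GATA only dips at the centre, as its control does.

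H3K27ac in the CEBPA-free regions was nearly alike in p30 and p42 cells, and what differed was mostly higher in p30. Since a peak in both lines was required, regions with a peak in 1 line only are not counted here. Each list was divided by its median over all constitutive regions. The median log2 ratio of p30 to p42 was 0.09 in untreated cells and 0.01 with LPS, against −0.17 and −0.16 in the regions with CEBPA; without the scaling all constitutive regions shifted by −0.05 and 0.11. Untreated, 201 of the 32850 regions (0.612%) were at least 2-fold lower in p30, where 2.74% of all constitutive regions and 10.9% of the regions with CEBPA were. With LPS it was 240 (0.731%), beside 2.68% of all constitutive regions and 10.8% of those with CEBPA. In the other direction 722 regions (2.2%) were at least 2-fold higher in p30 untreated and 664 (2.02%) with LPS, near the background of 1.83% and 1.85%. With −log10 p in place of fold enrichment, 11.1% were higher in p30 untreated, above the 8.28% of all constitutive regions. The shares lower in p30 were smaller without CEBPA in all 9 rank classes that held any such region with CEBPA, and weighting the regions with CEBPA to the rank of those without gave 10.3% in place of 10.9%. The untreated and LPS contrasts come from different lists, but each list also enters an LPS contrast below.

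**Figure D4:**
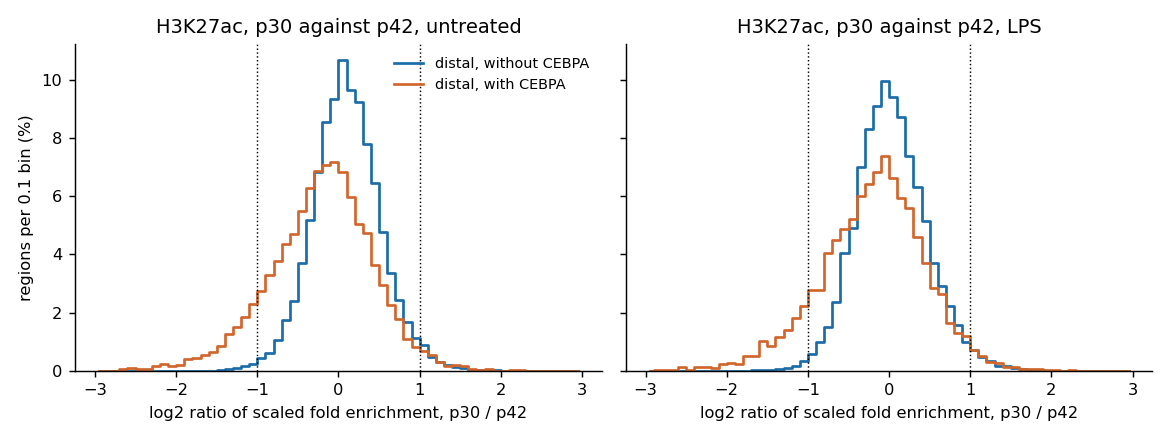
Distribution of the log2 ratio of scaled H3K27ac fold enrichment between p30 and p42 cells, untreated (left) and with LPS (right), in constitutive distal regions without (blue) and with CEBPA (orange), in bins of 0.1; dotted lines mark 2-fold. The orange curve has a long left tail, with 10.9% of regions past 2-fold lower in p30 untreated against 0.612% for the blue curve.

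The few CEBPA-free regions that were lower in p30 had a CEBPA site within 1 kb more often than the CEBPA-free regions as a whole, although most had none so near. In both states 48 regions (0.146%) passed 2-fold, against a background of 1.39%, and 15 of these 48 (31.2%, 95% interval 19.9% to 45.3%) had a CEBPA or ER peak within 1 kb, where 7.01% of all the CEBPA-free regions did. Of the 201 regions in untreated cells, 42 had (20.9%, 15.8% to 27%), and their median gap to a CEBPA or ER peak was 3735 bp, beside 2568 bp for the 48 and 7423 bp for all. The 5 with the largest p42 excess lay 45 bp (nearest gene Mtrfr), 536 bp (Sntb2), 43 bp (Ppp2r5a), 834 bp (Raet1e) and 270 bp (Cox6c) from such a peak. Near Mtrfr, which encodes a mitochondrial translation release factor, fold enrichment was 14.7 untreated and 12 with LPS in p42 cells, and 4.2 and 3.43 in p30 cells. Near Ppp2r5a, a regulatory subunit of protein phosphatase 2A, it was 20.5 and 17.0 in p42 and 7.55 and 6.46 in p30. None of the 48 held the CEBP word, where 4.62% of the other regions did, a difference of −4.62 points whose interval of −4.85 to 2.79 spans 0. AP-1 was in 16 of the 48 (33.3%, 21.7% to 47.5%) and in 63 of the 201 (31.3%, 25.3% to 38.1%), against 21.3% of the remaining regions; the difference for the 201 was 10.1 points (4.03 to 16.8).

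Regions higher in p30 held PU.1 and RUNX words more often than the other CEBPA-free regions. In both states 204 regions (0.621%) passed 2-fold, near the background of 0.576%. RUNX was in 37.7% of them against 25.7% of the other CEBPA-free regions, a difference of 12 points (5.64 to 18.9), and PU.1 in 24.0% against 13.3%, a difference of 10.7 points (5.33 to 17.0). Their median mean rank was 23.3%, against 40.3% for all, but 2 of the 4 lists behind that rank also chose them. In the strongest 10% of all CEBPA-free regions the shares were 26.5% for RUNX and 21.8% for PU.1, so the PU.1 share of the 204 was near that of strong regions in general. An H3K4me1 peak covered the summit in 151 of the 204 in p30 cells (74.0%) and in 93 in p42 cells (45.6%). The summit was that of the H3K27ac list ranking the region best, and p30 excess chose these regions. The p30 H3K4me1 list was also longer, so the 2 shares are not on equal terms. The largest excess was near Lax1, an adaptor gene of lymphocytes, 4.66 kb upstream of its start: 5.28 and 3.84 in p42 cells, untreated and with LPS, and 22.9 and 22.1 in p30 cells. Near Ttc7b it was 3.35 and 3.53 in p42 and 13.3 and 14.3 in p30. Both values of p30 exceeded both of p42 in each of the 5 regions with the largest excess, which also lay near Bcas1, Pebp4 and Cyria. All 5 had an H3K4me1 peak at the summit in p30 cells, and only the Lax1 region had one in p42 cells.

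The rule required a peak with and without LPS, so regions that gained or lost their peak with LPS were left out, and the share that changed is a description of what remained. In p42 cells 253 (0.770%) were at least 2-fold higher with LPS and 88 (0.268%) at least 2-fold lower, where 0.883% and 0.376% of all constitutive regions were. In p30 cells 241 (0.734%) were higher and 118 (0.359%) lower, beside 0.936% and 0.399%. These shares were near those of all constitutive regions. Their order depended on the measure: with −log10 p in place of fold enrichment, 6.87% were higher and 4.37% lower in p42, where 5.65% and 4.04% of all constitutive regions were, and 4.55% were higher and 7.84% lower in p30, beside 4.84% and 6.11%. In that measure lower regions also outnumbered higher ones in p30. The CEBPA-free regions make up 58.0% of all constitutive regions, so nearness to that background is partly built in. Of the regions with CEBPA 1.61% were higher in p42 and 1.26% in p30 by fold enrichment, and 0.874% and 0.883% were lower. In both lines 38 CEBPA-free regions (0.116%) were higher, against 0.161% of all constitutive regions and 0.365% of those with CEBPA. Lower in both lines were 5 (0.0152%), against 0.023% and 0.0672%.

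NF-kB matches were in 19 of the 38 regions higher in both lines (50.0%, 34.8% to 65.2%) and in 11.8% of the other CEBPA-free regions, a difference of 38.2 points (23.0 to 53.3). AP-1 was in 15 (39.5%, 25.6% to 55.3%) against 21.3%, a difference of 18.1 points (4.26 to 34.0). Its reversed control was in 2 (5.26%) against 18%, a difference of −12.7 points (−16.5 to −0.661). That interval also excludes 0, so the AP-1 interval over these 38 regions is to be read with care. Taken by line, the NF-kB share was 21.7% of the regions higher in p42 (difference 9.93 points, 5.27 to 15.4) and 30.7% of those higher in p30 (19.0 points, 13.5 to 25.1). For AP-1 it was 37.2% in p42 (15.9 points, 10.2 to 22.0) and 28.2% in p30 (6.92 points, 1.59 to 12.9). Whether the 2 lines differ in these shares was not tested, and some regions are in both sets. In regions lower with LPS, AP-1 was in 11.9% in p30 cells (−9.52 points, −14.2 to −2.44) and in 20.5% in p42 cells (−0.896 points, −8.02 to 8.69). The CEBP word was in 5 of the 38 (13.2%) against 4.6% of the others, a difference of 8.56 points (1.15 to 22.7). PU.1 and GATA shares of the 38 were 21.1% and 65.8%, and their differences to the other regions spanned 0.

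The largest excess in both lines was in an intron 41.3 kb upstream of the nearest start, that of the integrin gene Itga9. Fold enrichment there was 3.77 untreated and 10.7 with LPS in p42 cells, and 5.25 and 15.4 in p30 cells. After scaling, LPS was 3.04-fold higher in p42 and 2.87-fold in p30. Second was an intergenic region 68.8 kb from the start of Hs1bp3, with 4.44 and 11.1 in p42 and 6.30 and 19.1 in p30. A region 7.16 kb upstream of Zc3h12c, of the Regnase family of RNA-cleaving enzymes that curb inflammation, had 3.49 and 8.60 in p42 and 3.52 and 9.97 in p30. One 79.7 kb upstream of Cd44, an adhesion receptor of leukocytes, had 5.65 and 21.5 in p42 and 4.46 and 11.8 in p30, which made it 4.09-fold higher in p42 and 2.60-fold in p30. The fifth lay 10.0 kb upstream of Gpr4, with 2.38 and 8.14 in p42 and 2.76 and 7.09 in p30. In all 5, both LPS values exceeded both untreated values.

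For the 5 regions lower with LPS in both lines, the nearest protein-coding genes were Zfp386, Zfp53, Tusc3, Farsb and Hand1, some of them far away. The Zfp386 region, 454 kb from that gene, held an annotated start of some other transcript. It went from 19.9 to 6.47 in p42 and from 14.6 to 6.03 in p30. The Tusc3 region, 136 kb from the start, had 11.6 and 2.7 in p42 and 8.36 and 3.81 in p30. It is a tandem repeat, in which 87.5% of the 200 bp around the summit were identical to the base 24 bp further on; only 112 of all the regions (0.341%) were at least 80% identical to themselves at any lag from 2 to 100 bp. The part of the repeats in its values was not tested.

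**Figure D5:**
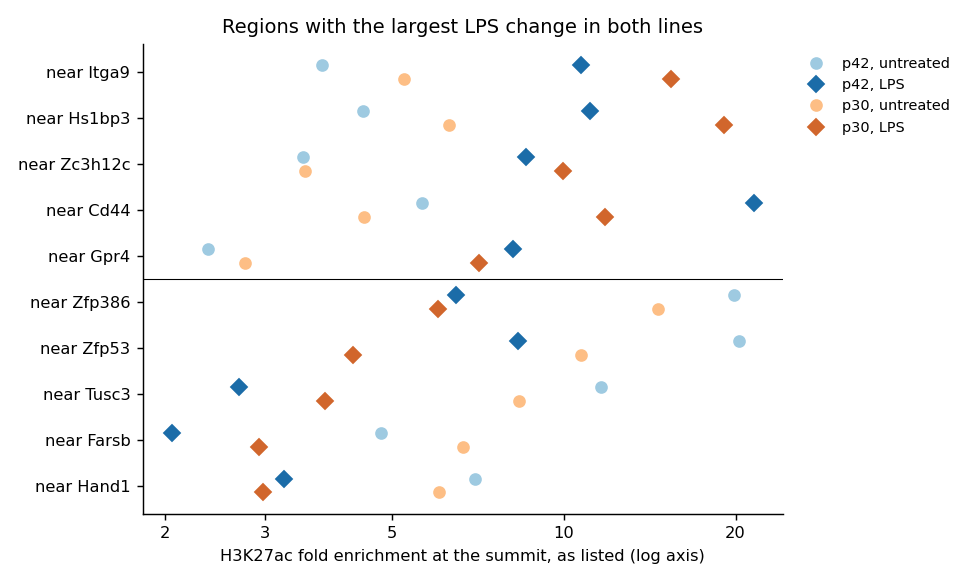
H3K27ac fold enrichment at the summit, as listed and on a log axis, in the 5 CEBPA-free distal regions with the largest excess and the 5 with the largest deficit after LPS in both lines, each named by its nearest protein-coding gene. Diamonds (LPS) lie right of circles (untreated) in the upper 5 and left of them in the lower 5; the region near Cd44 reaches 21.5 in p42 cells.

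Around genes, the regions formed groups. Joined across gaps of up to 10 kb they fell into 14587 stretches, of which 1480 held at least 5 regions and together 36.2% of all, while 8150 regions (24.8%) stood alone. The run with the most regions held 35 over 116 kb of chr10, mostly nearest to Osbpl8. Next were runs at Ifnar1, an interferon receptor gene, with 34 over 133 kb, and at Bpnt1, with 34 over 110 kb. Eml4 had 33 over 135 kb, Med13l 33 over 98.2 kb and Susd1 31 over 93.5 kb. Lyn, a Src-family kinase gene of myeloid and B cells, had 30 over 112 kb, and Cdk6, a cell cycle kinase gene of progenitors, 29 over 102 kb. Each of these runs also contained between 1 and 5 regions with CEBPA. The runs were named after their values were seen. The density was lowest on X, at 2.18 regions per Mb, and highest on chromosome 17, at 24.4; the share of constitutive distal regions that were free of CEBPA lay between 71.2% (chromosome 14) and 80% (chromosome 17) throughout.

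The protein-coding gene nearest to most CEBPA-free regions was Foxp1, a forkhead repressor of lymphoid and myeloid cells, with 61, followed by Runx1 with 53, Tiam1 with 52, Med13l with 51 and Cux1, Elmo1 and Slco3a1 with 50 each. Ikzf2 and Runx2 had 47 each and Fut8 44. Nearest means shortest distance only and no contact was measured here. Of the 53 Runx1 regions 32 lay within 50 kb of a start, and 31 in p42 and 36 in p30 cells had an H3K4me1 peak; 20 regions with CEBPA were also nearest to Runx1. Runx2 had 36 and 39 of its 47 with the mark, and Elmo1, an activator of Rac signalling, 19 and 20 of its 50.

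Of 21408 protein-coding genes, 8898 (41.6%) were nearest to at least 1 CEBPA-free region and 4962 (23.2%) to a constitutive distal region with CEBPA. All 7 stem cell regulators of the heptad had a CEBPA-free region. Runx1 had 53, Fli1 16, Lmo2 11, Erg 8, Tal1 6, Lyl1 3 and Gata2 1, and all but Gata2 also had regions with CEBPA. The strongest Tal1 region, 12.6 kb from the start, had 25 and 19.4 in p42 cells, untreated and with LPS, and 25.8 and 28.1 in p30 cells. The strongest near Lmo2, which encodes the bridging partner of TAL1, lay 61.4 kb upstream with 15.1, 14.7, 18.4 and 17.7. The single Gata2 region, 8.81 kb upstream, was weak, with 4.47, 4.30, 4.59 and 6.02. None of these 3 changed by 2-fold between lines or with LPS.

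Other progenitor regulators had a CEBPA-free region in 17 of 19 cases, with Mecom and Hoxa9 as the exceptions. Ikzf2 led with 47, and its strongest had 24.5, 27.2, 23.7 and 33.3; Zeb2 had 36, Myc 28 and Myb 11. Spi1, the PU.1 gene, had 3, Zfpm1, which encodes the GATA cofactor FOG1, 6, and Cbfb and Ldb1, which encode cofactors of RUNX and LMO2, 3 and 4. None of these 4 genes was nearest to a region with CEBPA. Among receptors and surface molecules 12 of 14 had a region, led by Kit, the receptor for stem cell factor on which the cells depend, with 41. Its strongest region, 188 kb from the start, had 22.6 and 19.5 in p42 cells and 38.3 and 40.2 in p30 cells.

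Inflammatory genes had a CEBPA-free region in 23 of 32 cases, 17 of them beside a region with CEBPA. Nfkb1, an NF-kB subunit gene, had 18, Irf1, an interferon response regulator, 11, Tnfaip3, an NF-kB inhibitor, 9, and Ier3 and Tlr2 7 each. The strongest Irf1 region was 6.13 kb upstream with 41.2, 38.3, 45.4 and 45.4. Cxcl10, a chemokine gene, had 1 region, with 7.10 and 11.2 in p42 cells and 4.33 and 8.27 in p30 cells. Cxcl1, Cxcl2 and Ccl2 had regions with CEBPA but none without, and Tnf, Il1a, Il1b, Zfp36, Cd14 and Myd88 had neither. AP-1 genes had a region in 8 of 10 cases, and the strongest near Jun, 109 kb upstream, had 49.2, 35.4, 50.1 and 63.3. The strongest near Fos had 28.2 and 19.5 in p42 and 19.9 and 14.9 in p30, lower with LPS in both. The C/EBP family genes had a region in 5 of 5 cases, including 4 near Cebpa itself and 9 near Cebpb. Neutrophil granule genes had one in 6 of 11 cases, with Elane, Prtn3, Ctsg, S100a8 and S100a9 lacking any, and at most 3 regions per gene. Housekeeping genes had a region in 11 of 13 cases but few each, with a median of 1 against 8 for the heptad. Every one of the 8 lists, housekeeping genes included, had a share above the 41.6% of all genes.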

How the data were processed

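H3K27ac, H3K4me1, CEBPA and ER-tag ChIP-seq libraries of HPC-7 cells were used as 10 peak lists deposited by the authors, 1 per group. According to the methods and labels, reads were trimmed (Trim Galore 0.6.6), aligned to mm39 with Bowtie2, freed of duplicates with Picard, and peaks were called with MACS2 against input. The deposited columns are the fold enrichment over input at the summit, a ratio, and the −log10 p-value and −log10 q-value of the caller, down to a q of about 0.05. The methods name calls on single replicates as well as on pooled ones; with 1 list per group, the histone lists were read as the latter, which the lists themselves do not state. H3K4me1 chromatin was cut with MNase and the other chromatin was sonicated. An ATF4 list of human cells was not used. The members and all gene and motif lists were chosen with earlier results of these data known.

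Regions were built, annotated (GENCODE vM39) and searched in Python 3.11.15 with pandas 2.3.3, numpy 2.4.6 and scipy 1.17.1; samtools 1.23.1 read the genome. A region's value in a list was the fold enrichment of its best peak by p-value; ratios were taken after dividing each list by its median over the 56635 constitutive regions, and 2-fold was the limit for a call. With 1 list per group no test between conditions was possible. Named genes were those of the gene lists, the 10 nearest to most members, the 10 best-ranked members, and the 5 with the largest excess in each direction with LPS in both lines and between lines in both states; the runs of neighbouring regions were named outside this rule. Code was tested on simulated data. No per-sample column was left out. The lists name no excluded genome regions, and no such filter was applied.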

Additional observations from a re-analysis of the deposited data

How the results depend on the processing

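No paired analysis was possible because each group came as 1 list, and for the same reason no replicate could be left out. The number of regions was 17668 when H3K27ac peaks needed q under 1e-05 and between 26532 and 35943 under the other 9 definitions. H3K4me1 shares at the summit were 28.5% (p42) and 36.1% (p30) with H3K4me1 peaks of q under 1e-05, 41.8% in p30 with equally many peaks, and 59.1% and 64.5% for any overlap. The difference to regions with CEBPA was −12.4 points (p42) and −5.84 points (p30) weighted by rank and width and −26.2 and −21.2 points for any overlap; no direction changed.

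With −log10 p in place of fold enrichment the 2-fold counts were several times larger: with LPS 2258 higher and 1436 lower in p42, 1496 and 2574 in p30, and 3636 higher and 1867 lower in p30 than in p42 untreated. This turned the balance of higher and lower with LPS in p30, and put 3 of the 4 LPS shares (6.87%, 4.37% and 7.84%) above those of all constitutive regions (5.65%, 4.04% and 6.11%) instead of below. In that measure 5.68% of regions without and 25% of those with CEBPA were lower in p30, beside 9.25% of all constitutive regions. Higher in p30 were 11.1% of regions without and 6.61% of those with CEBPA, beside 8.28% of all constitutive regions. Without scaling, LPS in p42 gave 131 higher and 209 lower, so the balance of higher and lower in p42 rests on the scaling. The following were added after seeing the data. The NF-kB difference in regions higher with LPS in both lines was 21.8 points in 500 bp windows and 16.3 points for the 368 regions past 2-fold in −log10 p. The strongest 10% exceeded the weakest 10% by 8.68 points (PU.1) and 9.1 points (ETS) in 500 bp windows. Leaving out regions within 1 kb of a CEBPA or ER peak left 159 of the 201 lower in p30. The causes of these shifts were not tested.

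Every motif share was lower in shorter windows, and the differences to regions with CEBPA kept their sign in 500 bp or weighted by GC wherever their interval excluded 0, but in 200 bp those of ETS (0.609), PU.1 (0.176), RUNX (0.0605), AP-1 (0.172) and CRE (0.0171) were positive. The shares of the 8 gene lists stayed within their intervals with members within 50 kb only or with gene starts.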
